A study of Mus musculus with 2 samples.

Results

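Immediate early genes and inducible heat shock genes were measured by single-cell RNA-seq in mouse dorsal skin, in 1 Ctrl library and 1 AD library. The 10 genes were chosen by symbol and comprised 8 immediate early genes, namely Fos, Fosb, Jun, Junb, Egr1, Atf3, Ier2 and Nr4a1, and the heat shock genes Hspa1a and Hspa1b. Each symbol matched 1 of the 33904 rows of both gene tables. Both libraries came from dorsal skin of female C57BL/6J mice aged 7 weeks, depilated 24 h before the first application and collected on day 10. Ctrl skin received EtOH, the vehicle, daily for 10 days, and AD skin received 4.5 nmol MC903 per application on the same schedule. MC903 is a synthetic form of active vitamin D, and its repeated use on skin brings on a dermatitis that resembles AD. The labels and methods describe enzymatic digestion with collagenase (type IV in the methods, D in the labels) and DNase I for both libraries, which the groups therefore share, and the labels add a dead cell removal kit. Neither source used here gives the number of mice behind a library.

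Immediate early genes are transcribed within minutes of a stimulus and need no new protein for it. Growth factors, cytokines, wounding and stretch induce them in skin, and warm enzymatic digestion induces them in cells while a tissue is being taken apart. Hspa1a and Hspa1b encode inducible HSP70, a chaperone that binds unfolded proteins, and heat shock factor 1 switches them on under heat, oxidation and other proteotoxic stress. No undigested skin is among the samples, so RNA that the skin held before collection and RNA made during digestion cannot be told apart here. With 1 library per group, the treatment and the library cannot be told apart either, so no test was made and no p-value is given. All intervals are 95% intervals, and they express no error beyond counting.

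Hspa1a and Hspa1b are neighbours on chromosome 17 of GRCm38 in GENCODE M21, Hspa1b from 34956436 to 34959238 and Hspa1a from 34969190 to 34972156, both on the minus strand and 9951 bases apart. Their transcripts were 85.5% identical over 3037 aligned bases. Over the last 500 bases, which a 3′ library reads, no 90-base stretch was shared by both transcripts, so their UMIs could be assigned to one or the other. The 250 bases before the start differed at 3 positions. RefSeq promoters (GRCm38.p6) were found for 8 of the 10 genes. Egr1 and Ier2 had no entry. The 150 bases before the start are shown for the heat shock pair, for Jun, whose profile over cell types was the most like theirs, and for Fos. Capitals mark GAANNTTC, the core of a heat shock element, in the first 3, and TGACG, a core of cyclic AMP response elements, together with TATAAA in Fos.
Hspa1a (chr17:34972157-34972306, minus strand): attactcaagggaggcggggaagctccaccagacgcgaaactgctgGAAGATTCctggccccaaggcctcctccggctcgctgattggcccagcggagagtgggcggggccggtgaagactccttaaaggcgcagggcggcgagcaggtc
Hspa1b (chr17:34959239-34959388, minus strand): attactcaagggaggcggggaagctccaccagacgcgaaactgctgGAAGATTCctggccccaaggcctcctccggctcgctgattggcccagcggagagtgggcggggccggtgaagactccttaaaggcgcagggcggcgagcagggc
Jun (chr4:95052223-95052372, minus strand): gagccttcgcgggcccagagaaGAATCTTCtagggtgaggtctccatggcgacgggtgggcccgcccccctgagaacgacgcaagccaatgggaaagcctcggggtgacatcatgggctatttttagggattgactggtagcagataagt
Fos (chr12:85473740-85473889, plus strand): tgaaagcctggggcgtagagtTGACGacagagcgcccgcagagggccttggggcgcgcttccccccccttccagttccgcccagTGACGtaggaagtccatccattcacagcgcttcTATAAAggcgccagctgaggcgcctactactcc

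Both strands of the 250 bases before the start were searched. GAANNTTC, which reads the same on both strands, was present in 3 of 8 members (Jun, Hspa1a, Hspa1b) and in 6.69% of 32851 promoters. TGACG, which may lie inside a longer response element, was present in 5 of 8 (Fos, Fosb, Junb, Atf3, Nr4a1) and in 17.8% of promoters. Nr4a1 held 4 copies. CCAAT was present in 4 members and in 33.8% of promoters, and TATAAA in 1 member and 12.4%. The AP-1 letters TGANTCA were in no member and in 6.75% of promoters, and a CArG box, the core of a serum response element, was in no member and in 1.47%. Sites further than 250 bases from the start, or at Egr1 and Ier2, were not searched, so a member with no match here may still have one. These are matches of letters, and no binding was measured.

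The Ctrl library held 12598 barcodes and 125184653 UMIs (distinct transcript molecules), and the AD library 8778 barcodes and 76106062 UMIs. After the filter of the methods (200 to 6000 genes, at most 10% mitochondrial UMIs), 11399 Ctrl and 8179 AD cells remained, with medians of 7813 and 6330 UMIs and of 2.96% and 1.54% mitochondrial UMIs. The libraries shared 35 barcodes. A cell was assigned to a type when its own UMIs put at least 3 markers of 1 of 18 gene sets above background, with a clear lead over every other panel. Type names below mean cells that passed this gate, a rebuilt name and not that of the study. It took 77.2% of Ctrl and 59.6% of AD cells, and 17.3% and 33.6% of the gated cells lay near its limits. Gated dermal fibroblasts (dFBs) had a median of 6 of 7 markers on in Ctrl and 4 of 7 in AD. Both libraries gave at least 50 cells for 9 types, which are compared below: dFBs (5313 in Ctrl and 3065 in AD), basal keratinocytes (KCs; 929 and 321), macrophages (447 and 187), T cells (533 and 329), blood endothelial cells (ECs; 124 and 115), lymphatic ECs (205 and 250), pericytes or vascular smooth muscle cells (VSMCs; 261 and 158), Schwann cells (151 and 62) and melanocytes (73 and 53).

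The immediate early program was present in every gated type, at levels that spanned about 1 order of magnitude. The 8 genes together made up 12468 CPM (UMIs of the genes per 1000000 UMIs) of all kept Ctrl cells and 19804 CPM of all kept AD cells. In Ctrl, mast cells were highest, at 25033 CPM (24468 to 25608, 136 cells). Schwann cells followed at 17794 CPM, dFBs at 15365 CPM, lymphatic ECs at 13978 CPM, pericytes or VSMCs at 13303 CPM and macrophages at 12949 CPM. Suprabasal KCs stood at 11660 CPM, basal KCs at 11515 CPM and blood ECs at 11049 CPM. T cells, at 5410 CPM, follicle matrix or inner sheath cells, at 4148 CPM, dendritic cells, at 3248 CPM, and melanocytes, at 2434 CPM (2325 to 2547), were the lowest. Neighbours in this order had intervals that did not overlap, although these leave out any spread between mice.

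In AD, mast cells were again highest, at 31715 CPM (30790 to 32661, 46 cells), and dendritic cells lowest, at 3627 CPM (3462 to 3797, 33 cells). The dFBs, at 22302 CPM, and the melanocytes, at 22024 CPM, had overlapping intervals. Basal KCs stood at 19772 CPM, Schwann cells at 18010.5 CPM, cells gated erythroid at 16720 CPM (78 cells, of which 8 lay in the erythroid cluster), pericytes or VSMCs at 15498 CPM and lymphatic ECs at 12197 CPM. Neutrophils (10554 CPM, 49 cells), basophils (10162 CPM, 31 cells) and macrophages (9672 CPM) followed, each overlapping the next. Adipocytes had 9363 CPM, blood ECs 8578 CPM and T cells 5574 CPM.

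**Figure D1:**
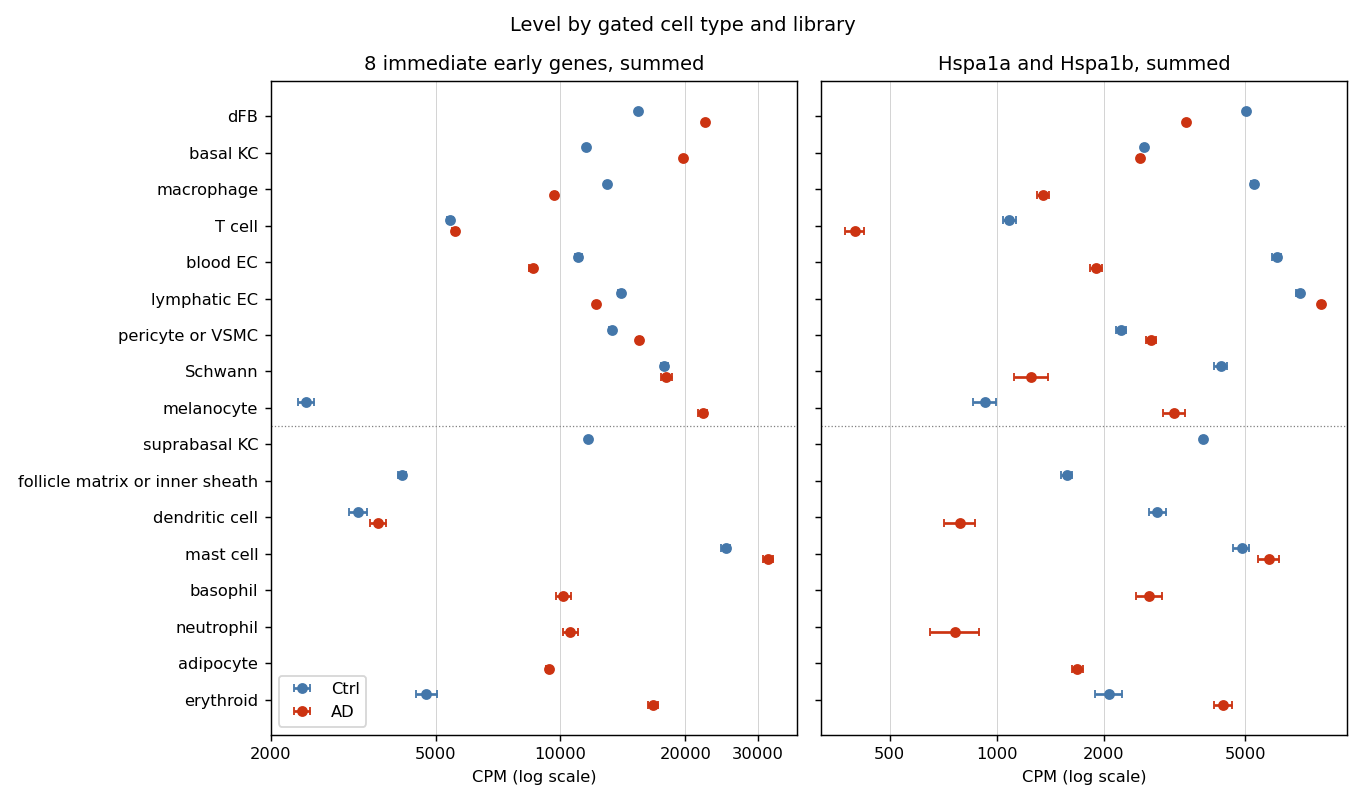
Summed level in CPM (log axis) of the 8 immediate early genes (left) and of Hspa1a and Hspa1b (right) in each gated cell type with at least 20 cells; points are the Ctrl (blue) and AD (red) libraries, bars are 95% Poisson intervals, and types above the dotted line had at least 50 cells in both libraries. AD stood above Ctrl in dFBs, basal KCs and melanocytes on the left, while macrophages, T cells, blood ECs and Schwann cells stood far below Ctrl on the right, with 1352 against 5289 CPM in macrophages.

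Hspa1a and Hspa1b followed another order of cell types. Among types with at least 20 cells, lymphatic ECs were highest in both libraries, at 7129 CPM (6974 to 7287) in Ctrl and 8189 CPM (8066 to 8314) in AD. In Ctrl, blood ECs (6137 CPM), macrophages (5289 CPM) and dFBs (5044 CPM) followed, and T cells (1085 CPM) and melanocytes (925 CPM) were lowest. In AD, mast cells (5821 CPM) and cells gated erythroid (4338 CPM) came before dFBs (3410 CPM), blood ECs stood at 1907 CPM, macrophages at 1352 CPM and Schwann cells at 1251 CPM. T cells, at 399 CPM (375 to 425), were the lowest. Both kinds of EC thus led in Ctrl, whereas in AD lymphatic ECs led and blood ECs ranked 9 of 15.

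The dFBs, the most frequent type, were 46.6% of the kept Ctrl cells and held 51446590 of their 105195951 UMIs. They held 60.3% of the immediate early UMIs and 61.6% of the heat shock UMIs of these cells. In AD, dFBs were 37.5% of the kept cells and held 27593428 of their 61645227 UMIs. Their shares of the immediate early and heat shock UMIs were 50.4% and 45.6%, with 31.2% and 32.1% in cells that passed for no type. Basal KCs held 11.4% and 8.04% in Ctrl, and 7.73% and 5.87% in AD. Lymphatic ECs, 250 of the 8179 AD cells, held 8.16% of the heat shock UMIs there.

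The make-up of the program differed between types. Junb, an AP-1 subunit, made up 38.3% of the 8 genes' UMIs in Ctrl T cells and 41.5% in AD T cells, against 14.5% and 18.5% in dFBs. In dendritic cells it made up 33.8% and 53.2%, and in AD adipocytes 34.0%. Nr4a1, an orphan nuclear receptor induced by T cell receptor signaling, made up 17.8% in Ctrl T cells. In the other Ctrl types with at least 20 cells it made up at most 11.8%. In AD it made up 13.2% in T cells and nearly as much, 12.7%, in basophils. Jun, the partner of Fos in AP-1, was the leading gene in, among others, Ctrl basal KCs (25.8%), lymphatic ECs (35.0%) and mast cells (34.2%). Egr1, a zinc finger factor that responds to serum and growth factors, led in Ctrl dFBs (23.8%), and Fos led in AD dFBs (24.7%) and AD basal KCs (33.2%). Atf3, a stress-induced repressor of the ATF family, reached 20.6% in follicle matrix or inner sheath cells and stayed at 0.925% in Ctrl mast cells. Within the heat shock pair, Hspa1b made up 72.0% of UMIs in Ctrl and 67.9% in AD lymphatic ECs. It made up between 43.8% and 62.9% in each other type and library with at least 20 cells.

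Nearly every dFB held a UMI of the AP-1 genes. In Ctrl dFBs, 98.4% of cells had a Jun UMI, 96.6% a Junb UMI and 96.0% a Fos UMI, at a median depth of 8970 UMIs. In AD dFBs the shares were 96.7%, 98.7% and 95.2%, at 7905 UMIs. Depth differed between types, so the share expected in a draw of 1000 UMIs per cell was also computed. At this depth, Fos was expected in 76.4% of Ctrl and 74.9% of AD dFBs, in 66.5% and 76.8% of basal KCs, in 71.6% and 67.7% of macrophages and in 37.8% and 35.8% of T cells. The share in melanocytes was 38.9% in Ctrl and 79.6% in AD. No gated type is known to lack these genes, so no type served as a background for the shares. Instead, the level that free RNA from dFBs could give was estimated from 4 dFB markers (Col1a1, Col1a2, Col3a1, Dcn) in every other type. It amounted to 1.48% of the measured immediate early level in AD basal KCs, 4.42% in AD macrophages, 6.36% in AD T cells, 8.47% in AD blood ECs, 17.6% in AD Schwann cells (6.09% in Ctrl) and 29.6% in AD pericytes or VSMCs (2.43% in Ctrl). With the highest of the 4 markers in place of their median, it would be 10556 of the 15498 CPM in AD pericytes or VSMCs. With the median it was 4587 CPM there, more than their level in AD stood above the 13303 CPM of Ctrl. The gate uses the same markers, so these estimates may be low. They may also be high, because marker RNA that a type makes itself is counted as free. In AD pericytes or VSMCs the 4 markers ran from 6.96% to 47.3% of their dFB level. The part of free RNA in the ratios was not tested.

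The dFBs, which build the collagen matrix of the dermis, had higher levels of the immediate early genes and lower levels of the heat shock pair in AD. The 8 genes together stood at 15365 CPM (15331 to 15399) in Ctrl and 22302 CPM (22246 to 22358) in AD, a log2 ratio of AD over Ctrl of 0.54. Fos went from 3034 to 5514 CPM (0.86 on the log2 scale) and Junb from 2222 to 4132 CPM (0.89). Atf3 went from 714 to 1051 CPM, Nr4a1 from 594 to 860 CPM, Jun from 3469 to 4320 CPM and Egr1 from 3661 to 4526 CPM, with log2 ratios between 0.31 and 0.56. Fosb and Ier2, a small nuclear protein gene, had the ratios nearest 0, at 0.16 and 0.25. All 8 ratios were above 0 and none reached 1. Hspa1a went from 2120 to 1524 CPM and Hspa1b from 2924 to 1886 CPM, log2 ratios of −0.48 and −0.63. A gene was called past the fold at a 2-fold difference if one of its levels reached 100 CPM. In dFBs, 11.6% of 2013 genes were higher in AD and 11.3% lower by this rule, and 0 of the 10 members were past it in either direction. The median log2 ratio was 0.31 over the members and 0.05 over all genes. When clusters replaced the gate, Fos reached 1.09 and Junb 1.11, and the count of members higher was 2.

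The level varied widely from dFB to dFB. The quartiles of the 8 genes were 8230 and 21225 CPM in Ctrl dFBs and 9312 and 33983 CPM in AD dFBs. Medians were 13710 and 18460 CPM. For the heat shock pair, the medians were 3478 and 1649 CPM, and the 10% of AD dFBs with the highest level held 44.4% of its UMIs, against 31.6% in Ctrl. Clusters made without these genes divided the dFBs further. In Ctrl, the summed level of the 8 genes was 22913 CPM in a cluster of 1416 dFBs led by Smpd3, Cxcl13 and Pla1a and 7434 CPM in a cluster of 675 dFBs led by Ednrb, Lrrc15 and Col11a1. In AD it was 33676 CPM in a cluster of 1030 dFBs whose leading genes included Procr, Cxcl13, Dpp4 and Ptgs2, and 14027 CPM in a cluster of 672 dFBs led by Tnc, Cpxm1 and Grem1. The heat shock pair ran differently, with 6771 CPM in a Ctrl cluster of 2221 dFBs led by Ccl19 and 3471 CPM in the Ctrl cluster that was highest for the immediate early genes. These clusters hardly mixed between the libraries. The cluster led by Coch and Fmod, with 70 Ctrl and 78 AD dFBs, was the only one with at least 50 gated dFBs in both, and its immediate early level was 13612 CPM in Ctrl and 11980 CPM in AD, while its heat shock level was 10561 and 3383 CPM.

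**Figure D2:**
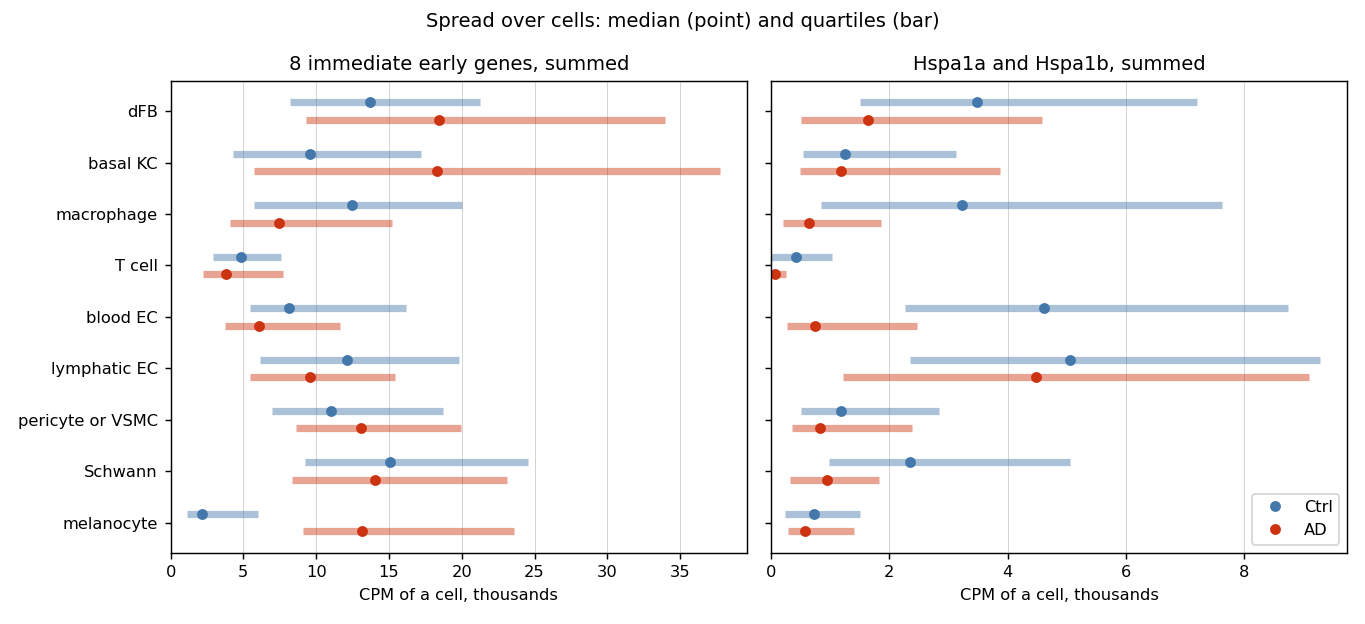
Spread of the CPM of single cells (kCPM, 1000 CPM, linear axis) for the 8 immediate early genes (left) and Hspa1a and Hspa1b (right) in the 9 compared types; points are medians and bars run from the lower to the upper quartile, in blue for Ctrl and red for AD. The quartile range of AD basal KCs, 5723 to 37765 CPM, was the widest on the left, and the medians of the heat shock pair in macrophages and blood ECs lay far apart.

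Basal KCs, here the cells gated by markers such as Krt5 and Krt14, had members past the fold in both directions. Their leading genes included Sox9 and Lhx2 in Ctrl and Fxyd3, Tns4 and Sfn in AD, so the gate may have taken unlike cells in the libraries. Fos stood at 2603 CPM (2575 to 2630) in Ctrl KCs and at 6559.6 CPM (6487 to 6633) in those of AD, a log2 ratio of 1.33 (1.31 to 1.36). Fosb went from 667 to 1806 CPM, a ratio of 1.44 (1.39 to 1.48). Junb went from 1270 to 2681 CPM, a ratio of 1.08 (1.04 to 1.11). Nr4a1 ran the other way, from 652 to 269 CPM, a ratio of −1.27 (−1.36 to −1.19). The genes that were higher encode AP-1 subunits, and Nr4a1 encodes a nuclear receptor. Atf3 was at 1400 and 2418 CPM (0.79), and Egr1, Jun and Ier2 had ratios between 0.19 and 0.35. The heat shock pair differed little, at 2599.8 and 2537 CPM in Ctrl and AD. In all, 3 members were higher and 1 lower by at least 2-fold, beside 6.61% and 7.78% of 1877 genes. The median ratio was 0.32 over the members and −0.16 over all genes. Clusters made without these genes split the basal KCs, and 207 and 86 Ctrl cells lay in clusters with no gated AD cell. In the cluster with the most (330 Ctrl and 191 AD cells), Fos, Fosb and Junb had ratios of 1.51, 1.84 and 1.58, Nr4a1 stood at 978 CPM in Ctrl but 490.1 CPM in AD, and the summed immediate early level was 17179 and 36406 CPM. In another (99 and 96 cells) the ratios of the AP-1 genes were 0.45, 1.01 and 0.55 and that of Nr4a1 was −1.52, and that level was 7455 and 6943 CPM. In a cluster mostly of suprabasal KCs (194 and 28 cells), Fos, Fosb and Junb were at −0.56, −0.24 and −0.45 and Nr4a1 at −2.20. The heat shock ratio was 0.83, −2.49 and −1.17 in these 3 clusters, so the small difference over all basal KCs combined unlike values. With all deposited barcodes, Fos, Fosb and Junb gave 0.73, 0.84 and 0.61, so that the count of members higher was 0. The ratio of the pair was −0.62 under 3000 UMIs (23 and 20 cells), 0.39 from 3000 to 6000 UMIs, 0.71 from 6000 to 12000 UMIs and −0.32 in deeper cells.

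Macrophages, which clear debris in the dermis, had 5 members lower in AD. The Egr1 level was 1450.0 CPM in the Ctrl library but 373 CPM in that of AD, with a log2 ratio of −1.96 (−2.09 to −1.83). Atf3 went from 1951 to 903 CPM (−1.11) and Ier2 from 459 to 210 CPM (−1.13). Hspa1a stood at 2453 CPM (2387 to 2521) in Ctrl and 729 CPM (689 to 772) in AD, and Hspa1b at 2836 CPM and 622 CPM, with ratios of −1.75 and −2.19. Fos, at 2356 and 2641 CPM, and Junb, at 2828 and 2965 CPM, had ratios of 0.16 and 0.07, so that the summed immediate early level was lower by less, with a ratio of −0.42. The 5 lower members stood beside 8.45% of 1881 genes, and 0 members were higher, beside 7.55%. AD macrophages were deeper, with a median of 7767 UMIs against 4389. The heat shock ratio was −1.65 under 3000 UMIs, −1.18 from 3000 to 6000 UMIs and −2.08 from 6000 to 12000 UMIs. In the same classes the summed immediate early ratio was −0.15, −0.52 and −0.17. When clusters replaced the gate, Atf3 and Ier2 gave −0.81 and −0.84, 3 members were lower and the summed immediate early ratio was −0.11.

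The heat shock pair was also lower in AD in T cells, blood ECs and Schwann cells, which had few or no immediate early members past the fold. In T cells, Hspa1a went from 440 to 181 CPM and Hspa1b from 645 to 218 CPM, ratios of −1.28 and −1.56. These were the 2 members lower, beside 6.49% of 1957 genes, and 0 were higher, beside 2.61%. The median ratio over all genes was −0.22 in T cells. Leading genes of the gated T cells included Trdc, Nkg7 and Cd7 in Ctrl and Icos, Ctla4 and Cd28 in AD, so the libraries may hold unlike T cells. A UMI of Hspa1b was found in 58.5% of Ctrl and 37.7% of AD T cells although the AD cells were deeper, and the expected shares at 1000 UMIs were 31.9% and 11.9%. In the shallowest T cells, with under 3000 UMIs, the ratio of the pair was 0.66 in place of −1.44, from 246 Ctrl and 25 AD cells. Free dFB RNA could give 13.6% of the pair in AD T cells. With clusters in place of the gate, the 2 ratios were −0.66 and −0.70 and no member was lower.

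In blood ECs, Hspa1a went from 2525 to 903 CPM and Hspa1b from 3612 to 1004 CPM, ratios of −1.48 and −1.85. Egr1 went from 1730 to 719 CPM, a ratio of −1.27, and Nr4a1 from 386 to 200 CPM, a ratio of −0.94. The 3 members lower stood beside 5.91% of 2098 genes, and 0 were higher, beside 4.62%. The median single blood EC held 4611 CPM of the pair in Ctrl and 737 CPM in AD. In Schwann cells, the glia of skin nerves, Hspa1a went from 2305 to 703 CPM and Hspa1b from 1968 to 548 CPM, ratios of −1.71 and −1.84. These were the 2 members lower, beside 8.74% of 2253 genes, with 0 higher, beside 6.39%. Fos, at 5010 and 5993 CPM, stayed within 2-fold. Free dFB RNA could give 38.8% of the pair in AD Schwann cells. With clusters in place of the gate, the Schwann ratios were −0.93 and −0.97, just short of the 2-fold limit, and no member was lower.

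Lymphatic ECs, which drain the dermis, did not have the lower heat shock level of blood ECs. Hspa1a was at 1998 and 2628 CPM in Ctrl and AD and Hspa1b at 5131 and 5561 CPM, ratios of 0.40 and 0.12. Neither was past the fold, and 0 of 10 members were called, beside 5.64% of 2109 genes higher and 5.50% lower. The ratio of the pair differed between depth classes. It was −1.21 in cells under 3000 UMIs, −0.58 from 3000 to 6000 UMIs and 0.09 from 6000 to 12000 UMIs. Pericytes or VSMCs, the contractile cells of the vessel wall, also had 0 members past the fold, beside 7.68% of 2123 genes higher and 8.57% lower. Their ratios ran from −0.39 for Nr4a1 to 0.65 for Junb, with 0.21 for Hspa1a and 0.36 for Hspa1b. The interval of Atf3, −0.14 to 0.01, included 0.

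Melanocytes, the pigment cells of skin and follicle, had all 10 members higher in AD. Fos stood at 415 CPM (371 to 463) in Ctrl melanocytes and at 5926 CPM (5625 to 6239) in those of AD, a log2 ratio of 3.83 (3.66 to 4.02). Egr1 went from 144 to 3083 CPM (4.41), Atf3 from 195 to 2068 CPM (3.40), Junb from 355 to 3471 CPM (3.29) and Fosb from 187 to 1807 CPM (3.26). Hspa1a went from 422 to 1644 CPM and Hspa1b from 503 to 1521 CPM. The type as a whole was far apart between libraries, since 23.0% of 2441 genes were higher and 21.7% lower, while 0 members were lower. The numbers are small, 73 and 53 cells, and the AD cells were shallower, at a median of 3500 against 6431 UMIs. The 6 AD cells with the highest level held 46.9% of the immediate early UMIs and 78.2% of the heat shock UMIs. The median cell had 2187 CPM of the immediate early genes in Ctrl and 13135 CPM in AD. For the heat shock pair the median cell had 729 CPM in Ctrl and 579 CPM in AD, so its order was reversed. For single genes, the 6 AD cells with the highest level held 88.1% of the Egr1 UMIs, 78.9% of those of Hspa1a and 81.2% of those of Hspa1b. The median cell had 0 CPM of Egr1 in both libraries, and 39.7% of Ctrl and 49.1% of AD melanocytes had an Egr1 UMI. Among the melanocytes with the fewest UMIs, the immediate early level was 9837 CPM in Ctrl (25 cells, median 1922 UMIs) and 12625 CPM in AD (18 cells, median 2485 UMIs). The deeper Ctrl classes had 2142 and 1841 CPM and the deeper AD classes 16475 and 27249 CPM, so the libraries were nearest in their shallow cells. Free dFB RNA could give 7.32% of the immediate early level in AD.

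**Figure D3:**
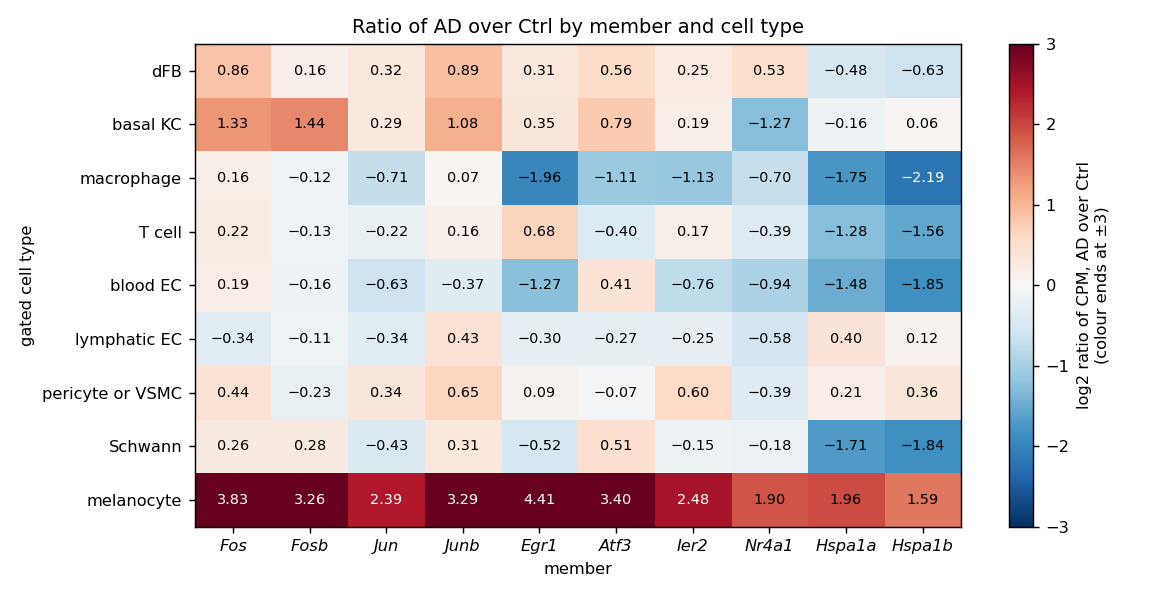
Log2 ratio of AD over Ctrl of CPM for the 10 members (columns) in the 9 compared cell types (rows); the number in each cell is the ratio and the colour scale ends at ±3. Melanocytes were above 1.5 for every member, the heat shock columns were below −1 in macrophages, T cells, blood ECs and Schwann cells, and all immediate early ratios in dFBs were between 0 and 1.

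Types with too few cells in a library for a ratio are given by their levels. In mast cells, Jun stood at 8557 CPM (136 cells) in Ctrl and 8258 CPM (46 cells) in AD, and Fos at 5833 and 7396 CPM. In dendritic cells, the heat shock pair was at 2831 CPM (51 cells) in Ctrl and 788 CPM (33 cells) in AD, and the 4 AD cells with the highest level held 86.2% of it. Suprabasal KCs were 416 cells in Ctrl and 10 in AD. Among Ctrl types with at least 20 cells they had the narrowest spread of the immediate early level, with an upper quartile 1.84 times the lower. Neutrophils were 5 cells in Ctrl and 49 in AD, where Junb stood at 3062 CPM and Fos at 2956 CPM. Of the cells gated erythroid, 20 of 37 in Ctrl and 8 of 78 in AD lay in the erythroid cluster, the median number of genes was 351 in Ctrl and 1204 in AD, and dFB RNA could give 35.0% of the immediate early level in AD. Their levels are therefore those of cells with hemoglobin RNA, most of which in AD were clustered elsewhere.

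The levels differed with mitochondrial share and depth in some types and not in others. Cells of a type were cut into 3 classes of equal size. In AD dFBs, the class of cells with the lowest mitochondrial share (median 0.570%) had 35633 CPM of the 8 genes, the middle class 21293 CPM and the highest class (median 2.50%) 13712 CPM. In Ctrl dFBs the order was the same, with 21406, 12688 and 11802 CPM. The median mitochondrial share of dFBs was 2.55% in Ctrl and 1.37% in AD. The heat shock pair ran in opposite directions, from 3918 CPM in the lowest to 5939 CPM in the highest class in Ctrl, and from 5346 to 2263 CPM in AD. In macrophages the 3 mitochondrial classes differed by little for the immediate early genes, 12824 to 13039 CPM in Ctrl and 9508 to 10022 CPM in AD. In AD basal KCs, the class with the most UMIs had 14233 CPM of the immediate early genes and the class with the fewest 30318 CPM. From the fewest to the most UMIs, AD lymphatic ECs rose, with 9377, 11048 and 13099 CPM. Ctrl dFBs differed little, with 15478, 16119 and 14887 CPM. The part of RNA quality in the difference between libraries was not tested.

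**Figure D4:**
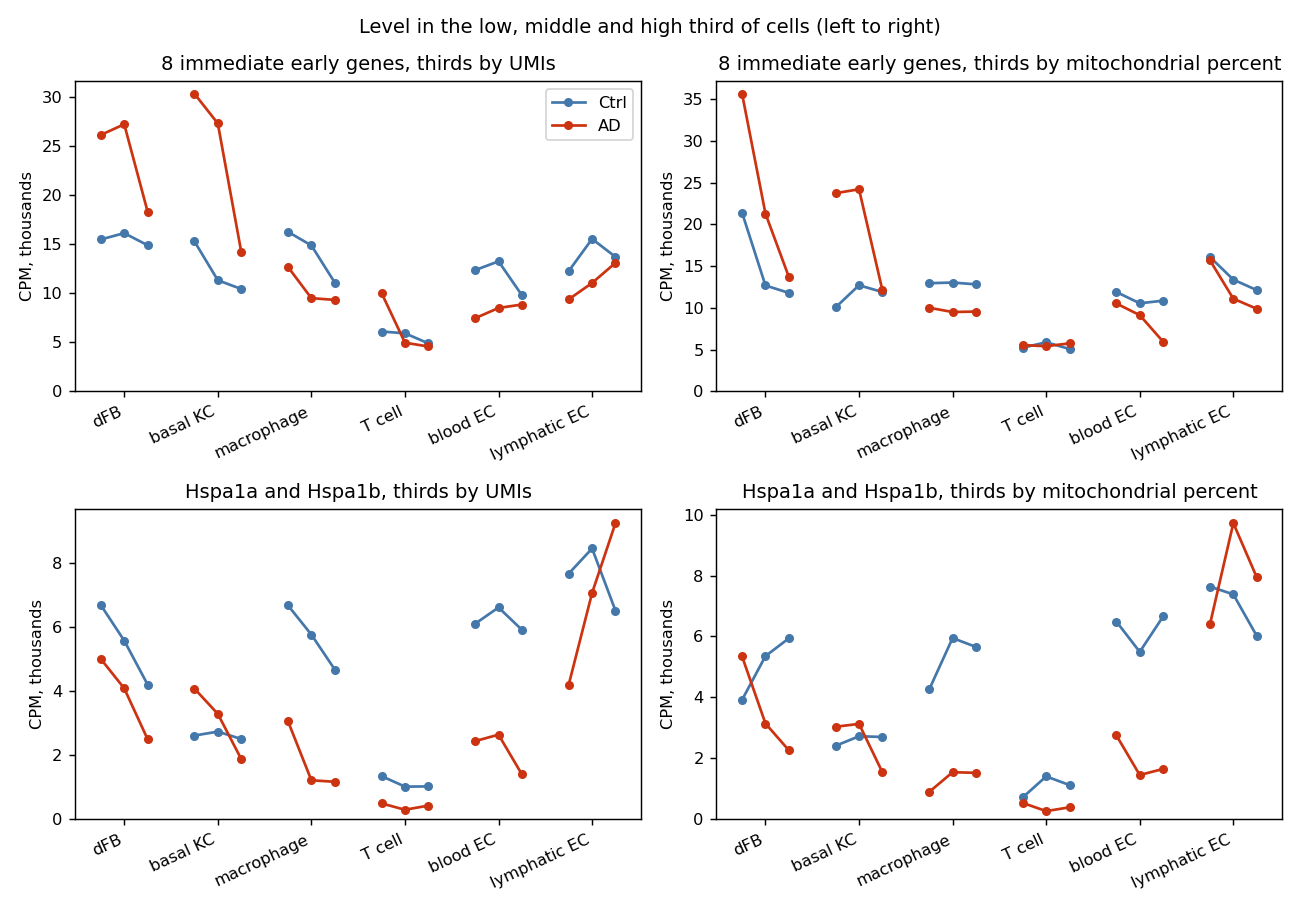
Level (kCPM, 1000 CPM, linear axis from 0) of the 8 immediate early genes (top) and Hspa1a and Hspa1b (bottom) in the low, middle and high class of cells of a type, by UMIs (left) and by mitochondrial share (right); each line joins the 3 classes of 1 type in Ctrl (blue) or AD (red). The dFB lines fell with mitochondrial share in both libraries on the top right, to 11802 CPM in Ctrl and 13712 CPM in AD, and those of macrophages were nearly flat.

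Members were measured together in single cells, although to different degrees. Across 5313 Ctrl and 3065 AD dFBs, the Pearson correlation of log-scaled levels was highest between Fos and Jun, at 0.66 and 0.73, and lowest between Jun and Nr4a1, at 0.10 and 0.04. Over the 28 pairs of immediate early genes its median was 0.40 and 0.38 in dFBs, 0.59 and 0.62 in basal KCs and 0.15 and 0.29 in T cells. Hspa1a and Hspa1b gave 0.76 and 0.73 in dFBs. The summed immediate early level and the summed heat shock level gave 0.29 in Ctrl and 0.47 in AD dFBs, and 0.38 and 0.66 in basal KCs. Cells share library and depth, so these values are descriptions. Few counts can also lower a correlation, and median depth was 3127 UMIs in Ctrl T cells and 13373 UMIs in Ctrl basal KCs. The order of types by correlation was therefore not tested.

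Over the 9 compared types in both libraries (18 points), the genes whose profile was most like the mean of the 8 immediate early genes among 4824 genes were Fgfr1 (Pearson r 0.91), a growth factor receptor, Jund (0.81), an AP-1 gene, Zbtb16 (0.79), Prss23 (0.78) and Angptl4 (0.78). Fgfr1 ranged from 22.1 CPM in Ctrl melanocytes to 553 CPM in AD dFBs. For the mean of Hspa1a and Hspa1b they were Jun (0.84), Cpne3 (0.82), Serpinb6a (0.81), Tnrc18 (0.81) and Rab11fip5 (0.79). Jun ranged from 349 CPM in AD T cells to 4886 CPM in Ctrl lymphatic ECs. These likenesses are descriptions over points that share library and depth.

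Related genes were taken from lists written with earlier results of these data known, so their counts are not independent evidence. Of the 33 other immediate early genes in the table, 26 had at least 100 CPM in dFBs, of which 14 were higher by at least 2-fold and 0 lower, beside 11.6% and 11.3% of all genes, with a median log2 ratio of 1.11 beside 0.05 over all genes. Ier5l (2.83), Myc (2.43), a growth regulator, and Gadd45a (2.20), a stress and cell cycle gene, had the highest ratios. Rhob (−0.39), Ccn1 (−0.38), a target of YAP and of serum response factor, and Klf6 (−0.05) had the lowest. In basal KCs, 11 of 26 were higher and 0 lower, beside 6.61% and 7.78% of all genes, with a median of 0.96 beside −0.16. Cebpd (2.74), Ier3 (1.76) and Gadd45b (1.44) led, and Ccn1 (−0.87), Egr2 (−0.59) and Rhob (−0.16) were lowest. In macrophages, 7 of 24 were higher and 2 lower, beside 7.55% and 8.45%, with a median of 0.29.

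Feedback genes, which switch the response off again, were higher in 4 of 9 cases in dFBs and in 5 of 9 in basal KCs, beside 11.6% and 6.61% of all genes, with 0 lower in either. Socs3, an inhibitor of JAK-STAT signaling, went from 509 to 2327 CPM in dFBs (2.19) and from 177 to 773 CPM in basal KCs (2.12). Zfp36, which promotes decay of unstable mRNA, gave 1.20 and 1.35, Zfp36l1 1.15 in dFBs, and Nfkbia, the NF-κB inhibitor, 1.75 in basal KCs. The lowest were Nfkbiz (0.42), Dusp1 (0.44) and Spry2 (0.53) in dFBs and Tnfaip3 (0.21), Dusp1 (0.23) and Dusp6 (0.29) in basal KCs. Of the other AP-1 genes, 2 of 7 were higher in dFBs, beside 11.6% of all genes, namely Maff (1.35) and Fosl2 (1.04), before Mafk (0.87), and Maf (−0.91), Jund (0.41) and Jdp2 (0.41) were lowest. In basal KCs, Jund (0.74), Fosl2 (0.51) and Maf (−0.67) were not past the fold.

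Other heat shock genes did not run with Hspa1a and Hspa1b in every type. In dFBs, 1 of 17 was higher, Hmox1 (1.41), which degrades heme and answers to oxidation, and 1 lower, Cryab (−1.87), a small chaperone, shares below those of all genes (11.6% and 11.3%). The heat shock factor targets Dnajb1 (−0.87) and Hsph1 (−0.67) were next lowest, while Hspa9 (0.85) and Hspb8 (0.64) were next highest. In basal KCs, Hspb1 (1.03) was higher and Hsph1 (−1.25) lower among 16, beside 6.61% and 7.78%, and Hspa4l (0.84), Bag3 (0.59), Hspd1 (−0.92) and Hspe1 (−0.81) came next. In macrophages 4 of 14 were lower, beside 8.45% of all genes, and in T cells 0 of 14 were past the fold, beside 2.61% higher and 6.49% lower, with a median of −0.45 beside −0.22 over all genes. Genes of the Atf4 pathway, a response to amino acid lack and unfolded protein, were led by Ddit4, at 2.30 in dFBs and 1.39 in basal KCs, which was 1 of 3 past the fold in both. Atf4 gave 0.81 and 0.17, and Ppp1r15a 0.51 and 0.45.

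**Figure D5:**
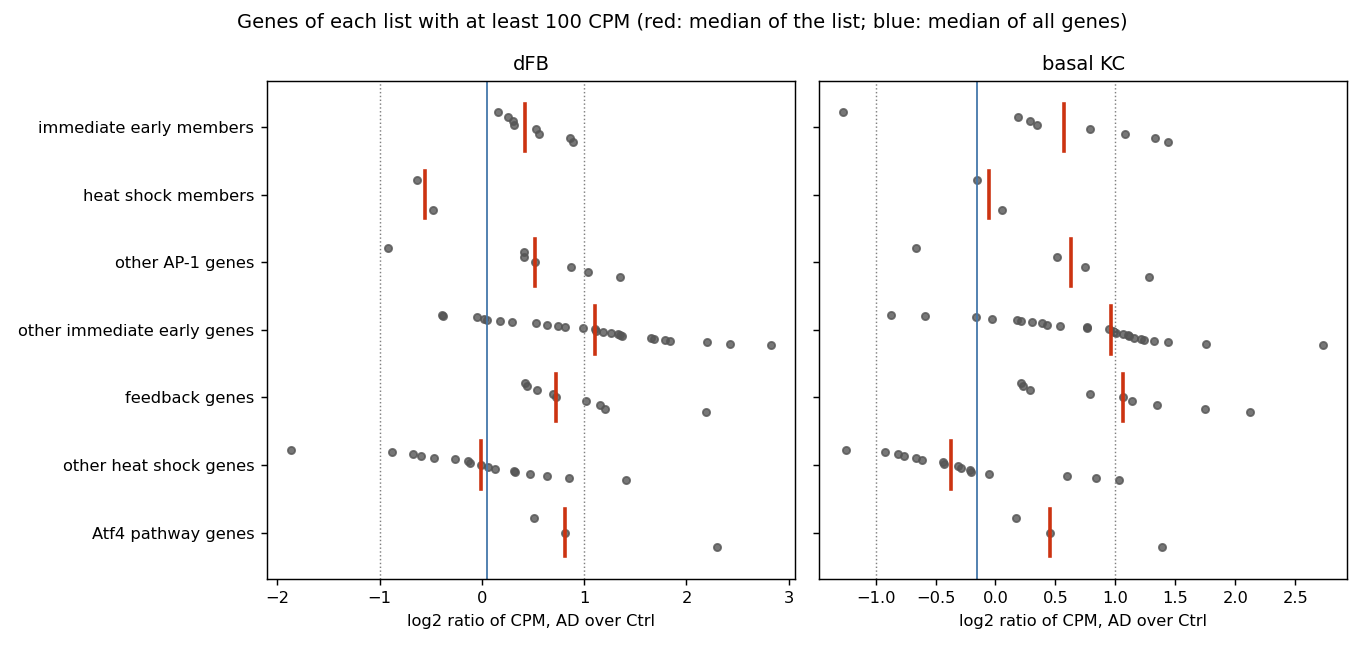
Log2 ratio of AD over Ctrl of CPM for the genes of each list shown that reached 100 CPM in Ctrl or AD, in dFBs (left) and basal KCs (right); each point is a gene, the red line is the median of the list, the blue line the median of all genes and dotted lines mark 2-fold. Most of the other immediate early genes lay to the right of the blue line, with medians of 1.11 in dFBs and 0.96 in basal KCs, and the other heat shock genes lay on both sides of it.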

How the data were processed

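Single-cell RNA-seq (10x, 3′) was available for 1 Ctrl and 1 AD library. The deposited values were raw UMI counts per gene and barcode, which the authors made with Cell Ranger against mm10. The file headers name version 5.0.0 and the submitters' processing notes version 3.1.0, with Seurat 5.0. The authors' cell annotation was not used here. Total UMIs per library were 125184653 and 76106062.

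Cells with 200 to 6000 genes and at most 10% UMIs of the 13 mitochondrial genes were kept. A marker was on when its UMIs exceeded what 10% of the library's mean profile would give (Poisson tail under 0.01). A cell was assigned to the panel with the largest share of markers on, with at least 3 on and a lead of at least 0.15 over the next. This form of the gate was chosen from 2 by cell numbers alone. The 564 cells with close panels were left out, which can remove some doublets of unlike types but not all. At least 3 dFB markers were on in 10.8% of gated AD pericytes or VSMCs, 7.55% of AD melanocytes and 1.25% of AD basal KCs. Scrublet marked 3.47% of Ctrl and 0% of AD cells and so did not work in AD. Levels are summed UMIs per 1000000 UMIs of a type (CPM) with exact Poisson intervals, and shares of cells are raw percentages. Ratios are log2 of AD over Ctrl with 1 CPM added, which understates differences of low genes, and their intervals come from the conditional binomial of the UMIs of both libraries without it. Ratios needed 50 cells of a type in each library. Expected shares at 1000 UMIs are hypergeometric and leave out shallower cells. Correlations over cells used log2 of counts per 10000 plus 1. The ratio script was tested on simulated counts. The labels name no separate mice, batches or replicate numbers.

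The members, marker panels and gene lists were chosen with earlier results of these data known. The text names all 10 members, the 3 genes at each end of each list in dFBs and basal KCs, and the 5 genes most like each group. Some results of the lists are not reported here. Python 3.11.15, numpy 2.4.6, scipy 1.17.1, pandas 2.3.3, scanpy 1.11.5, leidenalg 0.10.2 and Biopython 1.88 were used. Of the gene identifiers, 32475 were in GENCODE M21 and 1429 were not. The alternatives were other cell filters, clusters in place of the gate, doublet removal, another scaling, pseudocount, filter on low values and gate, and, chosen after seeing the data, the highest 6% of Scrublet scores, a window of 3000 to 12000 UMIs and the median over cells.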

Additional observations from a re-analysis of the deposited data

Results flagged for a closer look

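Several members were past the fold in opposite directions in different cell types. Melanocytes and macrophages had log2 ratios of AD over Ctrl of 4.41 and −1.96 for Egr1, of 3.40 and −1.11 for Atf3, of 2.48 and −1.13 for Ier2, of 1.96 and −1.75 for Hspa1a and of 1.59 and −2.19 for Hspa1b. For Nr4a1, melanocytes had 1.90 and basal KCs −1.27. With 1 library per group, these differences between types were not tested. The melanocyte values rest on 73 Ctrl and 53 AD cells. Of the AD melanocyte UMIs, 6 cells held 88.1% for Egr1, 78.9% for Hspa1a and 81.2% for Hspa1b. The median melanocyte had 0 CPM of Egr1 in both libraries, and the ratio of the heat shock pair from the medians over cells was −0.33.

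Cells outside every gated type also held these genes. The 3301 ungated AD cells had 22855 CPM of the 8 immediate early genes, against 7786 CPM in 2602 ungated Ctrl cells, and 3974 CPM of Hspa1a and Hspa1b, against 2795 CPM. Barcodes removed by the cell filter had 9226 CPM of the 8 genes in AD and 8662 CPM in Ctrl.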

How the results depend on the processing

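No paired analysis was possible because each group is 1 library. Of the counts of members past the fold under the alternatives, 225 stayed within 1.5 times the reported count and 9 did not. Lowering or dropping the filter on low values could not move a count. Every member already reached 100 CPM in Ctrl or AD in each compared type. The ratios of members and of their sums moved more often than the counts. Of these ratios, 844 were classed as the same, 330 as moved, 18 as weaker, 13 as stronger and 1 as reversed. With all deposited barcodes, the members higher in basal KCs were 0. With clusters, the members higher in dFBs were 2, and the members lower were 3 in macrophages, 0 in T cells and 0 in Schwann cells. With the mean over cells, the members lower in basal KCs were 0. Among alternatives chosen after seeing the data, leaving out the highest 6% of Scrublet scores gave 1 member lower in lymphatic ECs, and cells with 3000 to 12000 UMIs gave 1 member higher in dFBs and 0 lower in basal KCs. The median over cells reversed the ratio of the heat shock pair in melanocytes, to −0.33. These causes were not tested. Over 12 alternatives the immediate early ratio ran from 0.36 to 0.75 in dFBs, from 0.24 to 1.31 in basal KCs and from 1.98 to 3.22 in melanocytes. It took both signs in T cells, from −0.35 to 0.27, and in Schwann cells, from −0.15 to 0.17. The heat shock ratio ran from −2.34 to −1.69 in macrophages and from −2.53 to −0.68 in T cells. In blood ECs it ran from −2.64 to −1.30 and in Schwann cells from −1.80 to −0.95. The heat shock ratio took both signs in basal KCs, lymphatic ECs, pericytes or VSMCs and melanocytes (−0.33 to 2.12).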

Other observations

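Socs3 was higher in AD by log2 ratios of 1.99 in macrophages, 1.57 in T cells, 1.59 in lymphatic ECs, 1.52 in pericytes or VSMCs and 4.86 in melanocytes, beside those of dFBs and basal KCs. In Schwann cells its ratio was 0.89 and in blood ECs 0.41, both short of the fold. Among pairs of immediate early genes over single cells, the pair with the lowest correlation held Nr4a1 in both libraries of dFBs, macrophages, T cells, blood ECs, lymphatic ECs and pericytes or VSMCs. In Schwann cells that pair was Atf3 and Ier2 in both libraries.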
